A study of Mus musculus with 20 samples.

Results

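The genes described here are Tnfaip6, which encodes the hyaluronan-binding protein TSG-6, and 7 genes whose proteins act with it: Itih1, Itih2, Itih3, Itih4 and Itih5, which encode inter-alpha-inhibitor heavy chains, Ambp, which encodes the light chain bikunin, and Ptx3, which encodes pentraxin 3. They were chosen by name. All 8 have a row among the 51912 genes measured at 24 h, and 6 of them have one among the 19722 genes measured at 4 h. Itih1 and Ambp were not analysed at 4 h. RNA-seq libraries were made with SMART-Seq chemistry from slices of the forebrain of pups aged 4 postnatal days, cultured with 5% horse serum for 4 h or 24 h. At 4 h, 3 libraries came from wild-type (WT, TSG-6+/+) slices and 3 from slices labelled knockout (KO, TSG-6-/-). At 24 h, females and males each gave 3 libraries labelled heterozygous (Het) and 4 labelled KO. KO names the label throughout. Every group received serum, so serum itself has no control here. The treatment text for 24 h speaks of WT slices where titles and genotype fields say Het, and the titles were followed. Which part of Tnfaip6 the knockout removes, and the strain, were not used here. The labels do not tie libraries to separate animals, so p-values reflect only how these libraries varied, and that spread may be technical.

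Inter-alpha-inhibitor is a plasma proteoglycan that is made chiefly in the liver. Its heavy chains are joined to bikunin, a serine protease inhibitor, through a chondroitin sulfate chain. TSG-6 is made by many cells under inflammatory signals, picks up the heavy chains and passes them on to hyaluronan, the long sugar polymer of the extracellular matrix. Pentraxin 3 is a secreted multimer, also made on demand in inflammation, that binds heavy chains and TSG-6 and holds heavy-chain-bearing hyaluronan together in the matrix around the ovulating oocyte. In the newborn brain hyaluronan is the backbone of the matrix between cells. The horse serum in the medium is a plasma product and was not measured for these proteins, which RNA counts cannot show.

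Tnfaip6 occupies chromosome 2 from 52038009 to 52056686 on the plus strand (GRCm38), with 6 exons. Itih2 (10094593 to 10131396, minus strand) and Itih5 (10153571 to 10256529, plus strand) lie on the same chromosome, 22.2 kb apart and facing away from each other. Itih4 (30886476 to 30902353, plus strand), Itih3 (30908572 to 30923760, minus strand) and Itih1 (30929180 to 30943289, minus strand) form a cluster on chromosome 14, with gaps of 6.2 and 5.4 kb. Ambp is on chromosome 4 (63143275 to 63154799, minus strand) and Ptx3 on chromosome 3 (66219910 to 66225805, plus strand). Veph1 runs over Ptx3 on the opposite strand, but they share 0 exonic bases.

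The promoters of 3 members on which the results turn are printed to show what inflammation-linked letters they hold: Tnfaip6 as the targeted gene, Ptx3 as the most variable member, and Itih2 as the heavy chain that differed most at 4 h. Each runs 5′ to 3′ on the strand of its gene, from 250 bases before to 50 bases after the RefSeq start (GRCm38.p6), and capitals mark motif matches. RefSeq promoters were matched for all 8 members. The RefSeq starts of Tnfaip6 and Itih2 lie inside the longer GENCODE spans given above.
Tnfaip6, chr2:52037863-52038162, plus strand: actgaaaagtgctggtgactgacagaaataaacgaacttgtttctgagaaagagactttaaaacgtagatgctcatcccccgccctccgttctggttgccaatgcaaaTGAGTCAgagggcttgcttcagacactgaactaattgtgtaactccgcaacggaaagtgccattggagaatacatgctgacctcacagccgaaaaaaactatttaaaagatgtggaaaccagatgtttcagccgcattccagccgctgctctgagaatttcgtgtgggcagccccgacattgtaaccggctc
Ptx3, chr3:66219637-66219936, plus strand: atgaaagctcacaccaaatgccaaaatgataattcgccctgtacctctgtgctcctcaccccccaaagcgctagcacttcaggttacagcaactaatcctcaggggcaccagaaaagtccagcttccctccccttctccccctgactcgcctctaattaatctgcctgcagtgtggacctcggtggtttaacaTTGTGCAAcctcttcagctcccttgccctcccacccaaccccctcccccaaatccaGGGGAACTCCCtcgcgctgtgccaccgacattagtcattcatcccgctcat
Itih2, chr2:10130634-10130933, minus strand: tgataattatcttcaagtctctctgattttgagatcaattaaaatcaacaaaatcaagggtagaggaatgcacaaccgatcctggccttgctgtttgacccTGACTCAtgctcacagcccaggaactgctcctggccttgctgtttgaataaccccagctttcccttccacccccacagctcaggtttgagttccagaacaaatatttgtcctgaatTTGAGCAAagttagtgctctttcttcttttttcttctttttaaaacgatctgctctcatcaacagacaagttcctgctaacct
Both strands of all 8 windows were searched for 6 motifs. The AP-1 motif TGANTCA, bound by Fos and Jun proteins, occurred in Tnfaip6 and Itih2, and in 7.81% of the 32851 promoters searched. Matches to the kappa B motif, which is bound by NF-kB, occurred only in Ptx3 among the 8 windows, where overlapping matches lie on both strands, and in 8.46% of all promoters. The C/EBP motif TTGCNNAA occurred in Ptx3 and Itih2, in both on the strand opposite to the gene, and in 10.8% of all promoters. TATAAA occurred in Itih3 and Itih4, and in 13.6% of all promoters. The CArG box and the HNF4 motif CAAAGTNCA occurred in none of the 8 windows, and in 1.63% and 1.41% of all promoters.

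Depth was 11411532 to 15030171 reads per library at 4 h and 8482933 to 18051300 at 24 h. Forebrain identity genes were read in every library, with a summed level of 530 to 895 CPM (reads scaled to a common library total). Of the 14 libraries at 24 h, which carry a sex label, 1 went against it: KO female 2 had 0 Xist reads and 1650 reads of 4 Y-linked genes. Het male 1 had 107 Xist reads beside 1470 Y-linked reads. At 4 h, where no sex is labelled, WT 1 and KO 1 had 5655 and 2355 Xist reads and the other 4 libraries carried Y-linked reads. Values of the 5 tested members without these libraries follow beside the genotype comparisons. The comparison of sexes, and the difference of genotype effects between them, count KO female 2 as female.

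Expression of the members was compared per kilobase of exon. At 4 h Ptx3 was the most abundant in WT slices at 5.94 ± 0.43 CPM per kb (SD, n = 3), above Tnfaip6 at 3.71 ± 0.57. Tnfaip6, Itih3 (3.31 ± 0.44 CPM per kb) and Itih5 (2.91 ± 0.37 CPM per kb) followed in that order, and each overlapped its neighbour in the order. Itih2 was lower at 1.88 ± 0.25 CPM per kb, and Itih4 was at 0.0266 ± 0.0094 CPM per kb. At 24 h Ptx3 again led in each of the 4 groups, with a mean of 20.1 ± 24.5 CPM per kb (SD, n = 14). Itih5 (5.11 ± 0.84 CPM per kb) and Itih2 (4.96 ± 1.51 CPM per kb) came next at 24 h and overlapped in all 4 groups. Tnfaip6 stood at 3.42 ± 0.81 CPM per kb and Itih3 at 2.10 ± 0.38 CPM per kb. The tables for 4 h and 24 h were normalised separately and differ in control genotype, so their levels are set side by side and were not tested against each other.

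**Figure D1:**
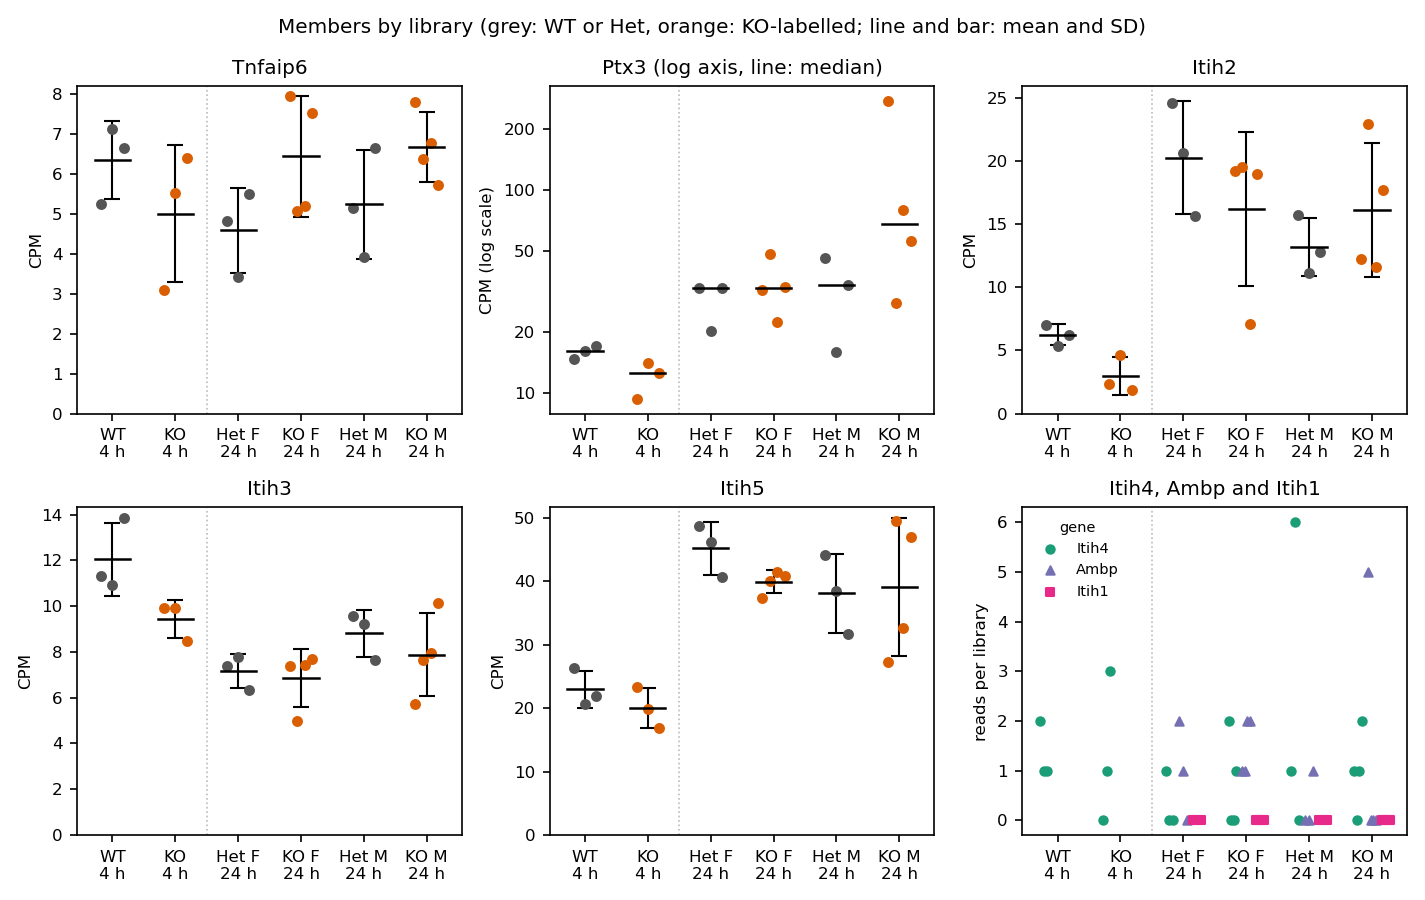
Levels of the members in each library, in CPM for Tnfaip6, Ptx3 (log axis), Itih2, Itih3 and Itih5, and in reads per library for Itih4, Ambp and Itih1; horizontal lines are group means with SD bars (medians without bars for Ptx3), and the dotted line parts 4 h from 24 h. At 4 h the KO-labelled points of Itih2, Itih3 and Ptx3 lie below all WT points, and at 24 h a single KO male library reaches 275 CPM of Ptx3.

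Itih1, Ambp and Itih4 were at or near the limit of detection. Itih1, a heavy chain of plasma inter-alpha-inhibitor, had 0 reads in all 14 libraries at 24 h, which allows at most 0.166 to 0.354 CPM depending on depth. Ambp had 15 reads in all at 24 h, with 0 in 6 libraries and at most 5 in any other (KO male 1). Itih4, a heavy-chain relative that is not joined to bikunin, had 8 reads in all at 4 h and 15 at 24 h, of which 6 were in Het male 2. None of the 3 passed the filters on low values, so they enter no comparison, and a difference between genotypes was not detectable at this depth. Those marker genes of hepatocytes that could be read were low too: Apoa1, the most abundant of them at 24 h, reached at most 2.48 CPM. Of the 10 listed, 3 have a row at 4 h and summed to 0.701 to 1.82 CPM. At 24 h, 9 have a row and summed to 1.09 to 3.12 CPM. The remaining listed gene, transferrin (listed as Tf), was matched to no identifier by that symbol. Its level was therefore not read at either time, and the sums leave it out. These limits cover counting error only.

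Nearly all heavy-chain transcripts were those of Itih2, Itih3 and Itih5. Of the summed CPM per kb of the Itih genes, Itih3 made up 42.0 ± 3.4% at 4 h (SD, n = 6) and 17.6 ± 3.8% at 24 h (SD, n = 14). Itih2 made up 18.7 ± 6.1% at 4 h and 40.0 ± 7.0% at 24 h. Itih5 made up 38.9 ± 4.7% at 4 h and 42.2 ± 4.3% at 24 h. Within 4 h, the Itih2 share was 24.7%, 22.4% and 22.2% in WT 1 to 3 and 11.0%, 21.1% and 10.9% in KO 1 to 3. At 24 h KO female 3 had an Itih2 share of 22.7%, below the 30.9% to 47.8% of the other 13 libraries.

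**Figure D2:**
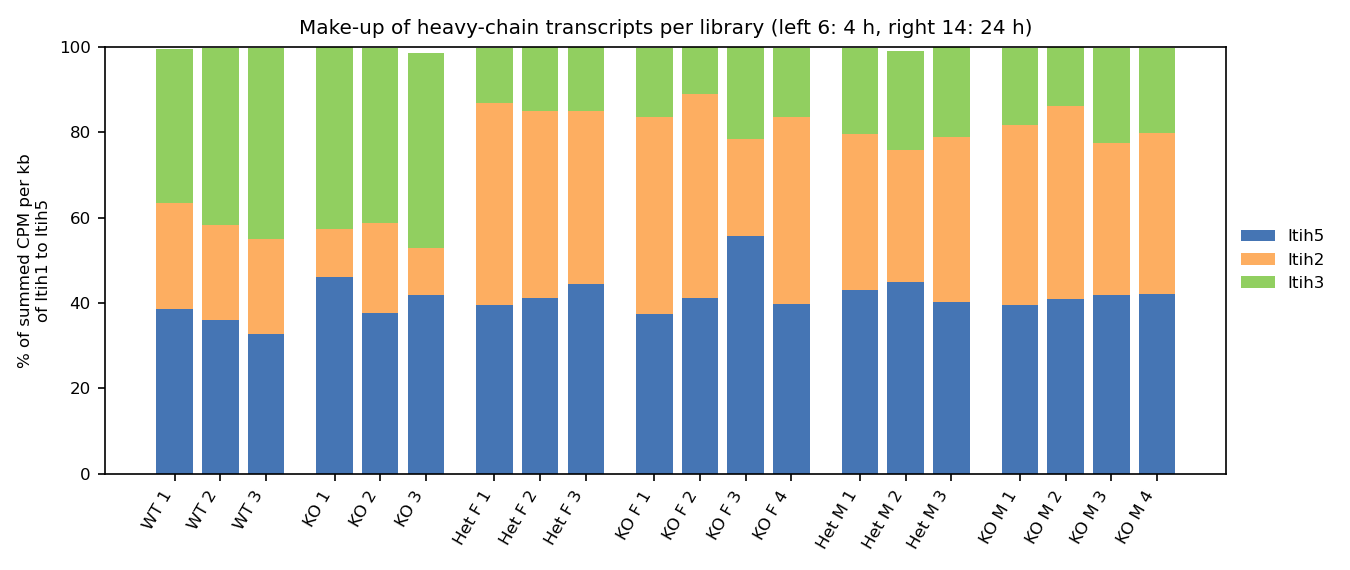
Share of Itih5, Itih2 and Itih3 in the summed CPM per kb of the Itih genes, as a percentage for each library (6 libraries at 4 h on the left, 14 at 24 h on the right; the small rest is Itih4). Itih3 takes 36.2% to 45.8% of each bar at 4 h and 11.1% to 23.4% at 24 h.

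Tnfaip6 was read in every library, including all 11 labelled KO. At 4 h it had 76, 94 and 83 reads in WT 1 to 3, or 5.25, 7.14 and 6.65 CPM. In KO 1 to 3 it had 37, 83 and 73 reads, or 3.08, 5.52 and 6.40 CPM. KO 1 was the lowest and the groups overlapped. By limma the log2 fold change (KO minus WT) was -0.36 ± 0.25 (SE; Benjamini-Hochberg adjusted p = 0.563). Leaving out 1 library at a time gave -0.56 (without KO 3) to -0.05 (without KO 1). At 24 h Tnfaip6 stood at 4.83, 3.43 and 5.51 CPM in Het females and at 7.96, 5.08, 5.21 and 7.54 CPM in KO females. In males it stood at 5.14, 3.93 and 6.65 CPM in Het and 7.82, 6.37, 6.77 and 5.72 CPM in KO. The KO-labelled means were the higher ones in both sexes, and the groups overlapped in both. Averaged over sexes, the log2 fold change (KO minus Het) was 0.45 ± 0.16 by edgeR's quasi-likelihood test, with an unadjusted p of 0.0122 and an adjusted p of 0.738. An exact two-sided permutation test within sexes gave p = 0.0204 for Tnfaip6, one of 20 such tests run over the members. In females and males separately the edgeR log2 fold changes were 0.50 ± 0.22 and 0.39 ± 0.23 (adjusted p = 1.00 and 0.765). The KO label is thus not visible as a loss of Tnfaip6 reads, and gene-level counts cannot tell which exons the reads came from. Without KO female 2 the average over sexes was 0.49 ± 0.16 and the female value 0.59 ± 0.23. Without Het male 1 the average was 0.45 ± 0.17 and the male value 0.40 ± 0.26.

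Among the heavy chains at 4 h, Itih2 differed most. Its normalised read count (reads divided by the authors' size factor) was 90.2, 70.0 and 79.3 in WT 1 to 3 and 30.7, 61.8 and 24.0 in KO 1 to 3, from 21 to 102 reads per library. All 3 KO-labelled values lay below all WT values. The log2 fold change was -1.13 ± 0.29 (limma, adjusted p = 0.153), and Itih2 ranked 175 of 15181 genes by p. Itih3, the heavy chain of pre-alpha-inhibitor, had 145, 142 and 176 normalised reads in WT and 131, 131 and 111 in KO. Its groups did not overlap either, at a log2 fold change of -0.31 ± 0.14 (limma, adjusted p = 0.364). Itih5, a heavy chain expressed outside the liver, had 336, 268 and 278 normalised reads in WT and 306, 263 and 220 in KO, which overlapped (limma, -0.17 ± 0.13, adjusted p = 0.611). Leaving out 1 library at a time, Itih5 ranged from -0.28 (without KO 1) to -0.045 (without KO 3). Ptx3 had 188, 209 and 215 normalised reads in WT and 123, 186 and 162 in KO. These groups did not overlap, and the log2 fold change was -0.40 ± 0.15 (limma, adjusted p = 0.271).

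Of the 5 members tested at 4 h, 0 passed the threshold, where 0.0461% of all genes tested did (2 genes higher, or 0.0132%, and 5 lower, or 0.0329%). All 5 had values below 0, with a median of -0.36 against 0.00 over all genes tested. Itih2, Itih3 and Ptx3 did not overlap between groups, the KO-labelled values being lower, as was so for 8.88% of all genes; the opposite, every KO-labelled value above every WT value, held for 10.1% of all genes and for 0 members. The exact permutation p of each of these 3 was 0.1, the smallest that 3 against 3 libraries allow. Leaving out KO 2, the KO-labelled library with the most Itih2, took Itih2 past the threshold at -1.51 ± 0.25 (limma, adjusted p = 0.0124). That omission drops the KO-labelled Itih2 value nearest to WT. It also raised the number of genes called, over all genes tested, from 7 to 211. Without the 2 libraries with Xist reads (WT 1 and KO 1), Itih2 was at -0.93 ± 0.36 (limma, adjusted p = 0.520), Ptx3 at -0.29 ± 0.16, Tnfaip6 at -0.18 ± 0.22, Itih3 at -0.39 ± 0.19 and Itih5 at -0.18 ± 0.15. A fit that paired libraries of the same replicate number (a block) called 38 genes, 11 higher and 27 lower, and no member was among them.

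Most tested markers of the meninges, endothelium and pericytes, astrocytes and choroid plexus had log2 fold changes below 0 at 4 h. Over all genes tested, 50.6% were above 0. The 12 meningeal genes summed to 629, 487 and 551 CPM in WT 1 to 3 and to 401, 539 and 355 CPM in KO 1 to 3, so that KO 2 was the KO-labelled library with most meningeal and most Itih2 RNA. In the fit, 11 of the 12 meningeal genes were below 0 (median -0.38), and 0 passed the threshold. The most abundant, Igf2, was at -0.36 ± 0.12. The 12 genes of endothelium and pericytes summed to 461 to 537 CPM in WT and to 387, 391 and 405 CPM in KO 1 to 3, with 11 of 12 below 0 (median -0.31). No gene of these 2 lists was at 0 in any library. The 10 astrocyte genes summed to 2012 to 2385 CPM in WT and to 1921, 1950 and 1979 CPM in KO 1 to 3, with 10 of 10 below 0 (median -0.13). Among KO-labelled libraries, the endothelial and astrocyte sums were thus highest in KO 3, the library with the least Itih2. Of the choroid plexus list, 9 genes have a row and summed to 81.8 to 84.7 CPM in WT and 67.4 to 74.7 CPM in KO, and 4 of the 5 tested were below 0 (median -0.19). The 8 microglial genes summed to 87.6 to 114 CPM in WT and 84.2 to 99.6 CPM in KO, with 5 of 8 below 0 (median -0.05). No gene of any of these lists passed the threshold. Neuronal markers summed to 4755 to 4944 CPM in WT and 5101 to 5349 CPM in KO. In bulk slices fewer cells of a type and less RNA per cell cannot be told apart, and the part of these cell types in the lower Itih2, Itih3 and Ptx3 values was not tested.

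**Figure D3:**
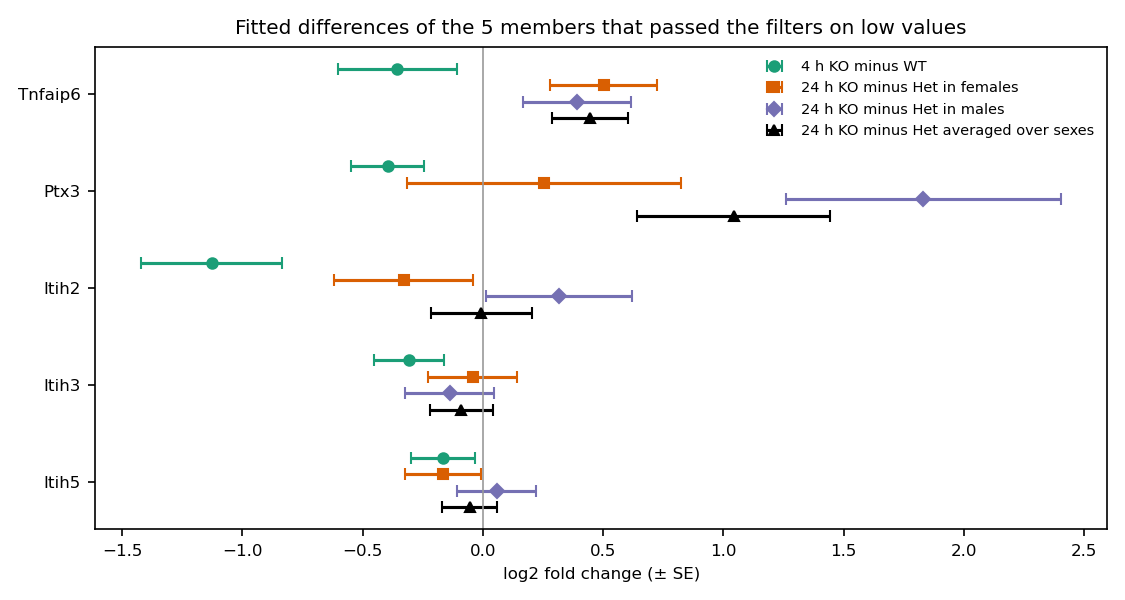
Log2 fold changes (points) with standard errors (bars) of the 5 members that passed the filters on low values, for KO minus WT at 4 h (limma) and KO minus Het at 24 h (edgeR) per sex and as the average of both. All 5 members are below 0 at 4 h; at 24 h Tnfaip6 and Ptx3 are above 0 in both sexes, and Ptx3 in males has the widest bar.

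At 24 h Itih2 was at 24.6, 20.7 and 15.6 CPM in Het females and 19.2, 19.6, 7.09 and 19.0 CPM in KO females. It was at 15.7, 11.1 and 12.8 CPM in Het males and 12.2, 23.0, 11.6 and 17.7 CPM in KO males. Both sexes overlapped between genotypes, and the low female value was KO 3. The edgeR log2 fold change averaged over sexes was -0.01 ± 0.21, with a nominal 95% interval (normal quantile) of -0.42 to 0.40. KO female 3 also had the lowest summed meningeal level of the 24 h libraries, 461 against 657 to 1074 CPM in the other 13, and the highest summed choroid plexus level, 3002 CPM. Without that library Itih2 in females moved from -0.33 ± 0.29 to -0.07 ± 0.21. Without KO female 2 the Itih2 average over sexes was -0.06 ± 0.22 and the female value -0.43 ± 0.31, and without Het male 1 the average was 0.07 ± 0.23 and the male value 0.46 ± 0.35. The part of the tissue in this value was not tested.

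Itih3 at 24 h was at 7.40, 7.78 and 6.33 CPM in Het females and 7.37, 4.99, 7.42 and 7.70 CPM in KO females. In males it was at 9.59, 9.23 and 7.66 CPM in Het and 5.72, 7.66, 7.96 and 10.2 CPM in KO. The genotypes overlapped in both sexes, with 1 low KO library in each. Itih5 was at 48.7, 46.2 and 40.6 CPM in Het females and 37.3, 40.1, 41.4 and 40.8 CPM in KO females, so that only the lowest Het value fell among the KO values. In males Itih5 was at 44.1, 38.5 and 31.6 CPM in Het and 27.2, 49.5, 32.7 and 47.0 CPM in KO, and the genotypes overlapped widely. Averaged over sexes, edgeR gave -0.09 ± 0.13 for Itih3 (nominal 95% interval -0.35 to 0.17) and -0.06 ± 0.11 for Itih5 (nominal 95% interval -0.28 to 0.17). The lowest Itih3 value, 4.99 CPM, was that of KO female 2, the library whose sex went against its label. Without it Itih3 was at -0.03 ± 0.12 averaged over sexes and 0.08 ± 0.18 in females, and Itih5 at -0.06 ± 0.12 and -0.17 ± 0.17. Without Het male 1 Itih3 was at -0.06 ± 0.14 averaged over sexes and -0.07 ± 0.21 in males, and Itih5 at 0.0033 ± 0.12 and 0.17 ± 0.18. The lowest Itih5 value, 27.2 CPM, was that of KO male 1.

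Ptx3 was the member with the widest spread at 24 h. It was at 32.8, 20.05 and 32.7 CPM in Het females and 32.1, 48.5, 22.2 and 33.3 CPM in KO females. In Het males it was at 46.1, 15.9 and 34.0 CPM. In KO males 1 to 4 it was at 275, 27.6, 80.0 and 55.9 CPM. The highest 3 of the 14 values were thus KO males 1, 3 and 4, while KO male 2 lay inside the Het range. The edgeR log2 fold change (KO minus Het) was 1.83 ± 0.57 in males (adjusted p = 0.718) and 0.25 ± 0.57 in females (adjusted p = 1.00). Averaged over sexes it was 1.04 ± 0.40 (adjusted p = 0.738), with an exact permutation p of 0.104. The difference between the sexes in this effect was 1.58 ± 0.80 (edgeR, adjusted p = 0.977). It ranged from 0.57 to 1.96 when 1 library at a time was left out, and it counts KO female 2 as female. Leaving out KO male 1 brought the male value to 0.83 ± 0.37 and the average to 0.54 ± 0.26. Without KO female 2 the female value was 0.04 ± 0.61 and the average 0.93 ± 0.42. Without Het male 1 the male value was 2.21 ± 0.68 and the average 1.23 ± 0.44.

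No member passed the threshold at 24 h in any contrast between genotypes, where 0% of the 16013 genes tested did: edgeR called 0 genes for the average of the sexes, for females, for males and for the difference between them. Genes with an unadjusted p under 0.05 numbered 1060 for the average, 657 for females, 1100 for males and 618 for the difference, and DESeq2 called 5, 1, 1 and 1 genes. Averaged over sexes, 2 of the 5 tested members were above 0 and 3 below, with a median of -0.01. Of the choroid plexus genes, 9 of 9 tested were above 0 in that average (median 1.02) and 0 passed. Their summed level was 1743, 3002 and 664 CPM in KO female 1, KO female 3 and KO male 3, against 129 to 183 CPM in the other 11 libraries, and its part in the members' values was not tested. In the comparison of males with females, 3 genes passed (0.0187% of those tested, all lower in males), and no member was among them. Ptx3 (0.90 ± 0.40) and Itih3 (0.24 ± 0.13) were above 0 there and Itih2 (-0.33 ± 0.21) below (edgeR, adjusted p = 0.998 for each). KO female 2, whose reads went against its sex label, counts as female in this comparison. Without KO female 2, 9 genes passed. Leaving out 1 library at a time gave 0.41 to 1.08 for Ptx3, 0.16 to 0.30 for Itih3 and -0.46 to -0.25 for Itih2.

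KO male 1, singled out after its values were seen, was high in inflammation-induced genes as well as in Ptx3. Its 275 CPM of Ptx3 was 8.39 times the median of the other 13 libraries, 32.8 CPM. All 12 of the listed NF-kB target genes that are induced together with Tnfaip6 and Ptx3 had their highest level of the 14 libraries there, as did 7 of 10 inducers and their receptors, against 6.99% of all genes tested. Cxcl10, a chemokine, was at 134 CPM against 8.31 to 77.1 CPM in the others. Timp1, an inhibitor of matrix metalloproteinases, was at 135 CPM against 18.7 to 51.7 CPM. Has2, which makes hyaluronan, was at 22.2 CPM against 6.89 to 14.5 CPM, and Cd44, a hyaluronan receptor, at 170 CPM against 73.1 to 132 CPM. Other hyaluronan genes were not all high: Has3 was at 22.9 CPM, inside the 19.3 to 26.3 CPM of the others. The highest level was in KO male 1 for 2 of 3 synthases, 3 of 6 degrading enzymes, 1 of 5 receptors and 0 of 8 lecticans and link proteins. Tnfaip6 itself was at 7.82 CPM, inside the range of 3.43 to 7.96 CPM in the others. Itih2 (12.2 CPM), Itih3 (5.72 CPM) and Itih5 (27.2 CPM) were below the medians of the other 13 libraries. KO males 3 and 4 came next in Ptx3, and their summed NF-kB target levels, 430 and 349 CPM, came after the 1003 CPM of KO male 1. KO male 1 was also one of the shallowest libraries at 9084118 counts, and the part of depth or culture state in its values was not tested.

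**Figure D4:**
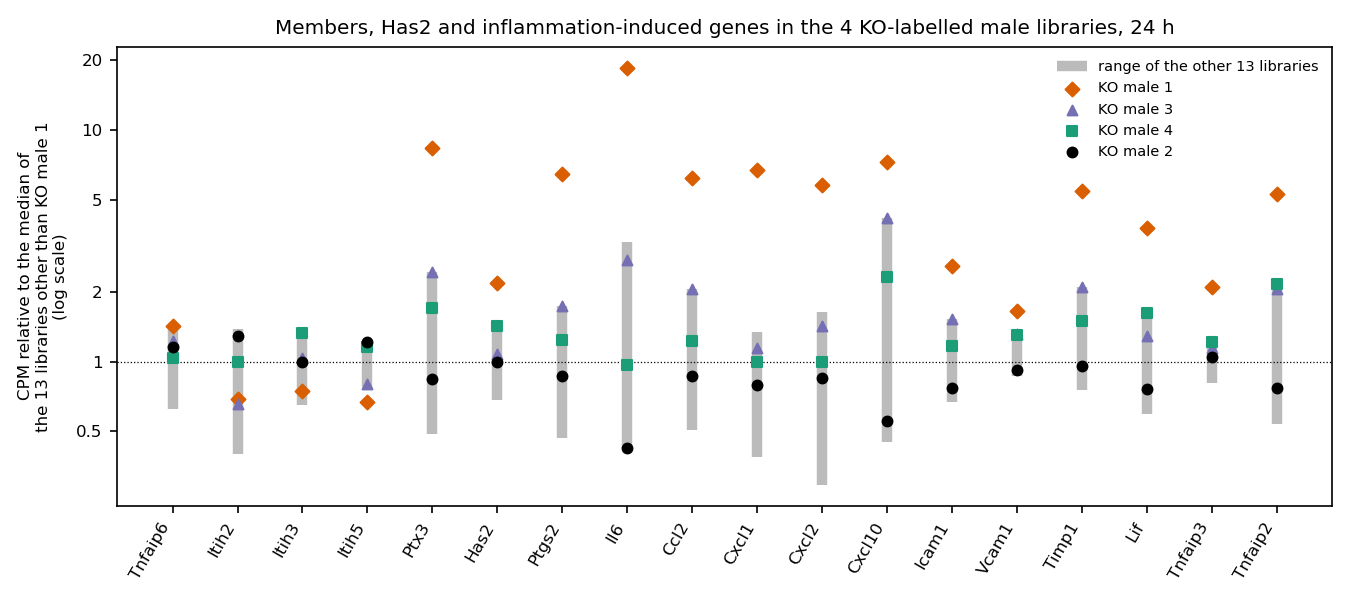
Levels of 5 members, Has2 and the 12 NF-kB target genes in the 4 KO male libraries at 24 h, each divided by the gene's median over the 13 libraries other than KO male 1 (log axis); grey bars are the range of those 13 libraries. KO male 1 lies above the grey bar for Ptx3, Has2 and all 12 target genes, and inside or below it for the other 4 members.

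The genes around the members were counted on lists, and 0 genes of any list passed the threshold in the comparisons between genotypes. Of the 12 NF-kB targets, all 12 were below 0 at 4 h (median -0.33) and all 12 above 0 at 24 h averaged over sexes (median 0.88), where the medians over all genes tested were 0.00 at both times. The most abundant of them, the adhesion gene Vcam1, was at -0.37 ± 0.08 at 4 h (limma, adjusted p = 0.0935) and 0.18 ± 0.11 at 24 h (edgeR, adjusted p = 0.814). In males the median of the list was 1.41 and in females 0.30. All 12 genes were highest in KO male 1, where they summed to 1003 CPM. KO male 2, at 207 CPM, lay within the 169 to 286 CPM of the Het males. The list was not fitted without KO male 1, and its control was Het at 24 h but WT at 4 h. These genes share libraries and vary together, so their number is not that of independent measurements. Of the 10 inducers and receptors, 4 were above and 6 below 0 at 4 h, and all 9 that were tested at 24 h were above 0 averaged over sexes (median 0.17). Nfkbia, the inhibitor that NF-kB induces against itself, was at -0.05 ± 0.08 at 4 h and 0.44 ± 0.18 at 24 h.

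Of the hyaluronan synthases, which make the polymer that receives the heavy chains, Has2 was at -0.53 ± 0.22 at 4 h (limma, adjusted p = 0.305) and 0.37 ± 0.16 at 24 h averaged over sexes (edgeR, adjusted p = 0.745). Has3, the most abundant of them at 24 h, was at 0.15 ± 0.10 and 0.00 ± 0.07. Hyaluronan receptors and degrading enzymes had medians of -0.07 and 0.02 at 4 h and 0.01 and -0.02 at 24 h averaged over sexes. Lecticans and link proteins, which bind hyaluronan in the brain matrix, were below 0 in 7 of 7 at 4 h (median -0.17) and in 3 of 7 at 24 h (median 0.03). Neurocan (Ncan), the most abundant of these, was at -0.04 ± 0.07 and 0.03 ± 0.05. Of 8 genes for other ligands of TSG-6 or pentraxin 3, 7 were below 0 at 4 h and 3 at 24 h. Fibronectin (Fn1) was at -0.39 ± 0.11 (limma, adjusted p = 0.166) and 0.26 ± 0.09 (edgeR, adjusted p = 0.738). The neuronal pentraxins Nptx1 and Nptx2 and their receptor Nptxr, relatives of Ptx3, were all 3 above 0 at 4 h (median 0.18) and at 24 h (median 0.06).

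Across the 14 libraries at 24 h, the genes whose log2 CPM followed each member most closely were named from 14324 genes. They are a description of these libraries, which share tissue make-up, depth and treatment. For Ptx3 they were Ccl2 (Pearson r = 0.96, Spearman rho = 0.78), Ptgs2 (0.95 and 0.80) and Cp (0.95 and 0.75). Without KO males 1 and 3, the libraries farthest from the median of Ptx3, r was 0.83, 0.83 and 0.77. Over the 6 libraries at 4 h, r was 0.53, 0.84 and 0.56 for the same 3 genes. For Tnfaip6 they were Pfkfb3 (r = 0.88, rho = 0.89), Nfxl1 (0.87 and 0.83) and Plekhg4 (0.84 and 0.78), which at 4 h had r of -0.32, -0.37 and -0.05.

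For Itih2 the closest were Enpp1 (r = 0.92, rho = 0.81), F13a1 (0.90 and 0.90) and Cped1 (0.89 and 0.84). Without KO female 3 and Het female 1 the r values were 0.88, 0.84 and 0.82, and at 4 h they were 0.35, 0.79 and 0.78. For Itih3 the closest were Cog8 (r = 0.86, rho = 0.83), Cdc25c (0.81 and 0.65) and Pcyox1l (0.80 and 0.75), with r of 0.04, 0.51 and -0.51 at 4 h. For Itih5 they were Rbl2 (r = 0.88, rho = 0.79), Gm10033 (0.88 and 0.64) and 2810013P06Rik (0.87 and 0.80), with r of 0.00, -0.22 and -0.43 at 4 h. Among the members themselves, Tnfaip6 and Ptx3 had r = 0.57 (rho = 0.45) at 24 h and r = 0.87 at 4 h. Itih2 and Itih5, neighbours on chromosome 2, had r = 0.53 (rho = 0.58) at 24 h and r = 0.55 at 4 h. Ptx3 and Itih5 had r = -0.60 (rho = -0.28) at 24 h, which became 0.07 without KO males 1 and 3, so that this relation rests on those libraries.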

How the data were processed

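Per the submitters' processing notes, GRCm38 (mm10), HTSeq, TopHat2 and DESeq2 1.38.3 were used, with no roles named; no strand setting or annotation release is stated there. For 24 h the deposited values are read counts. For 4 h the authors deposited a signal: counts divided by a size factor. Dividing by the worth of 1 read gave whole reads, with 100% of values whole within 0.05. At 4 h, log2(value + 1) of the 15181 genes with a mean of at least 10 was fitted with limma 3.58.1 (intensity trend), so a fold change there is on the log2(value + pseudocount) scale. edgeR 4.0.16 on the recovered reads, an alternative, also called 7 genes. At 24 h, edgeR's quasi-likelihood test with TMM scaling and its default filter (16013 genes) was fitted over all 14 libraries. Tests were two-sided, and adjusted p-values are Benjamini-Hochberg values over all genes tested, with a threshold of 0.05. Intervals are nominal 95% intervals from a normal quantile of the SE. A t quantile with the degrees of freedom of the fit would make them wider. Scripts were tested on simulated data. CPM scales reads to a common library total; exon lengths come from GENCODE (GRCm38), promoters from RefSeq (GRCm38.p6). Limits for 0 reads are 3 counts. Permutation tests and correlations at 24 h used log2(CPM + 0.5), with CPM there also divided by the TMM factor. Correlations used the genes whose mean log2 CPM, scaled in that way, was at least 1.

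The sample titles number the replicates but state no pairing. At 4 h, deviations from group means of same-numbered libraries correlated at 0.26, 0.14 and 0.18, and those of differently numbered libraries at -0.22 to 0.06. WT 1 and KO 1 were also the only 4 h libraries with more than a few Xist reads (5655 and 2355), so sex by reads went with replicate number. Whether the 4 h libraries were paired was not tested. The main 4 h fit and permutation tests treated them as unpaired, so their SEs and p-values take no account of a pairing. At 24 h libraries of the same title number correlated at -0.12 to 0.09. The submitters' descriptions number some of the 24 h libraries otherwise, and pairing by those numbers was not tested.

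Members and the 18 gene lists were chosen with earlier results of these data known. Text names all members, per list up to 4 genes of highest level at 24 h, and per member the 3 genes of highest Pearson r. KO male 1 and KO female 3 were singled out after their values were seen. Alternatives were other scalings, filters, pseudocounts, DESeq2 1.42.0, a replicate block and leaving out libraries.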

Additional observations from a re-analysis of the deposited data

Results flagged for a closer look

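Among the 4 KO females at 24 h, the lowest Itih2 value, 7.09 CPM in KO female 3, lay far from the other 3 (19.0 to 19.6 CPM): its gap to the nearest was 0.951 of the range of the group, above Dixon's critical value of 0.829 for 4 samples. The lowest Itih3 value there, 4.99 CPM in KO female 2, lay apart from 7.37 to 7.70 CPM in the others, with a gap of 0.880 of the range. The test was applied to 10 sets of values, those of the tested members in KO females and in KO males at 24 h, and chance marks about 1 set in 20. These sets share libraries. The WT, Het and 4 h KO groups, with 3 libraries each, were too small for it and could not be marked. KO female 3 had a summed meningeal level of 461 CPM, and KO female 2 was the library with 0 Xist reads; their part in these values was not tested.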

How the results depend on the processing

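At 4 h the 7 genes past the threshold became 161 with DESeq2 (107 higher, 54 lower) and 38 with the replicate block (11 higher, 27 lower). Without both libraries with Xist reads, a setting chosen after seeing the data, 1 gene was called, and leaving out 1 library at a time gave 1 to 211: 1 without WT 1, 2 without WT 2, 11 without KO 1, 211 without KO 2 and 4 without KO 3. At 24 h DESeq2 called 5 genes averaged over sexes, 1 in females, 1 in males, 1 in the difference between sexes and 5 between males and females. With no filter on low counts edgeR called 263 (202 higher, 61 lower), 180, 220, 165 and 215 genes in the same order; there its prior degrees of freedom were infinite against 6.47 with the filter. In that setting Ptx3 passed averaged over sexes (1.04, adjusted p = 9.48e-50), in males (1.83), in the difference (1.58) and between the sexes (0.90). The replicate block grouped the 24 h libraries by title number, which states no pairing (same-numbered r of -0.12 to 0.09). It called 6 genes averaged over sexes, 6 in females and 4 in the difference. With only the 7 libraries of that sex 1 gene was called in males. Leaving out 1 library gave 0 to 2 genes averaged over sexes (1 without KO female 3, 2 without Het male 3) and 2 to 9 between the sexes, 9 without KO female 2.

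No member crossed the threshold in a contrast between genotypes under any alternative other than these for Ptx3 and Itih2 at 4 h without KO 2 (-1.51). The 5 members kept their direction at 4 h under all 13 alternatives. At 24 h values near 0 changed sign: Itih2 averaged over sexes with DESeq2 (0.00013), Itih5 in males with the replicate block (-0.050), Tnfaip6 in the difference with the block (0.055), and Itih3 (0.028) and Itih5 (0.0099) averaged over sexes without KO female 2 and KO male 1. Leaving out 1 library, the values ranged from -0.11 to 0.13 for Itih2 and -0.12 to 0.011 for Itih5 averaged over sexes, -0.12 to 0.076 for Itih3 in females, -0.072 to 0.19 for Itih5 in males, and -0.29 to 0.074 for Tnfaip6 and -0.24 to 0.020 for Itih3 in the difference. The block changed no other call of a member, and the cause of these shifts was not tested. With 3 or 4 libraries a group and 21 to 102 reads of Itih2 and 37 to 94 of Tnfaip6 per library at 4 h, small differences were not detectable.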
